A study of Mus musculus with 24 samples.

Results

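The levels of 9 genes of the cartilage matrix and its control were followed in hindleg muscle samples of newborn mice. They were the proteoglycan aggrecan (Acan), the link protein Hapln1, the matrilins Matn1, Matn3 and Matn4, the pentameric glycoprotein Comp, the leucine-rich proteins Chad and Epyc, and the transcription factor Sox9. They were read from all 15 probe sets whose single gene symbol is one of these 9, on an Affymetrix array with 45101 probe sets, and the 9 genes were among 18193 genes with a probe set of their own. The genes were chosen by their log2 expression values in the muscle arrays, and which comparison between diets was used is not recorded. Their levels and their differences between diets are therefore given as a description, and nothing is supported by them.

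Total RNA came from the hindleg skeletal muscle of C57BL/6 pups on day 0 after birth. The dams were on their diet from day 1 of pregnancy until they gave birth. Normal protein (NP) was 20% casein and low protein (LP) 8% casein, and NPtau and LPtau had 1% taurine in the drinking water as well. Each diet had 3 muscle arrays, 12 in all. The labels call the arrays biological replicates and do not say whether the pups of a diet had separate dams, so the errors measure the spread between these samples, whose number limits the precision. Values are log2 expression made by the authors with RMA, which summarizes the probes of a probe set after normalizing the arrays together. A step of 1 is a doubling of signal, and an array's median over all probe sets was 4.95 to 5.04.

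Cartilage is made by chondrocytes, which lay down a network of type II, IX and XI collagen filled with aggrecan. Aggrecan is held on hyaluronan by link protein, and matrilins and Comp join the collagen fibrils to the rest of the matrix. Sox9 is the transcription factor that sets chondrocyte identity and drives many of these genes. In a newborn hindleg, cartilage forms the growth plates and the ends of the bones and lies against the muscles and tendons.

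The sample label was checked against muscle genes. All 14 genes of a skeletal muscle list lay above the array median on every array, with Acta1, the actin of skeletal muscle, at 14.20 to 14.91. The mean of the muscle list was 13.6 to 13.7 in NP, 13.1 to 13.7 in NPtau, 12.9 to 13.5 in LP and 13.3 to 13.7 in LPtau. LP replicate 1 and LPtau replicate 1 stood apart from the other arrays, with a median correlation with the others of 0.965 and 0.963 over all probe sets, against 0.979 or more elsewhere. Without both, the medians over the 9 genes of the diet comparisons described further on were 0.87 for LP minus NP, 0.33 for LPtau minus LP, 1.63 for LPtau minus NPtau and 0.38 for the interaction, against 1.47, 0.15, 1.40 and 0.12 with all arrays. The pups were of both sexes: Xist, the RNA of the inactive X chromosome, was 11.67 to 12.45 on 6 arrays, NP replicate 2, NPtau replicates 1 and 2, LP replicates 1 and 3 and LPtau replicate 2, and 4.74 to 5.94 on the other 6. LP replicates 1 and 2 were each among the 4 highest arrays for 9 of the 9 genes, with Xist high in replicate 1 and low in replicate 2 (5.47). LP replicate 3, among the 4 lowest for 6 of the genes, had high Xist. The part of sex in these values was not tested.

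The promoters of 7 of the 9 genes were matched by symbol in RefSeq promoter sequences of build GRCm38.p6, in 9 windows of 300 bases, from 250 bases before to 50 after a gene start. Comp and Sox9 were not matched. The windows were searched on both strands for the SOX core motif NNCAANG, in which each N stood for A or T only, since Sox9 is among the 9 genes. Matches stood in both windows of Epyc and in 0 windows of the other 6 genes. Among 32851 promoters of the same length 24.6% held a match, 4.3% held 2 or more and 0.618% held 3 or more. The windows of Epyc, Matn1 and Hapln1 are shown because these genes spanned the widest ranges over the arrays along with Acan, and because Epyc alone held matches. Capitals mark the matches.
Epyc, chr10:97643818-97644117, plus strand: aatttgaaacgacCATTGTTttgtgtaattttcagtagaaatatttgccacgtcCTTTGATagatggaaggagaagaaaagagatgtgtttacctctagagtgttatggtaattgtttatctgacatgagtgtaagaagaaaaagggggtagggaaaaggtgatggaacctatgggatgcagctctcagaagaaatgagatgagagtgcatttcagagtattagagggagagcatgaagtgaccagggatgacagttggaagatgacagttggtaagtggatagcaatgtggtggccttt
Epyc, chr10:97646853-97647152, plus strand: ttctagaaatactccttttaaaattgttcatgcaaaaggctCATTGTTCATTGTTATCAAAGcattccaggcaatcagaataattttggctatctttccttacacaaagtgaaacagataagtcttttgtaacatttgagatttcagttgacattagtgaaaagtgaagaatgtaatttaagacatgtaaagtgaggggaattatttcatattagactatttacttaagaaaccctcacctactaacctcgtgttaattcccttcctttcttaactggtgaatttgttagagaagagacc
Matn1, chr4:130944135-130944434, plus strand: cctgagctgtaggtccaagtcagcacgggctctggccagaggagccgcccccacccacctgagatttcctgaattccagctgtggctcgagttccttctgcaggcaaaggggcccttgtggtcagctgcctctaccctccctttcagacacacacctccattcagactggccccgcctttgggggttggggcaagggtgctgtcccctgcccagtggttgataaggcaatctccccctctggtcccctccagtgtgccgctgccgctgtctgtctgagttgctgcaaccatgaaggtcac
Hapln1, chr13:89540386-89540685, plus strand: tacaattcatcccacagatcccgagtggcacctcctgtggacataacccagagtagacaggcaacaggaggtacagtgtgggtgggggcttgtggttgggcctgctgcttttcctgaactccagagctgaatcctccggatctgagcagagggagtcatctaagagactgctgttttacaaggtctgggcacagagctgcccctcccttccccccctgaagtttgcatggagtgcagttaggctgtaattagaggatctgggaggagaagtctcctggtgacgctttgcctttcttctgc

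The upstream Epyc window held 2 matches, which began 237 and 196 bases before that start. The window of the other Epyc start held 3 matches that follow each other without a gap, which began 209, 202 and 195 bases before it. The GC content was 40.3% and 32.3% in the Epyc windows, 61.3% in that of Matn1 and 54.3% in that of Hapln1. The TATA box sequence TATAAA, searched on the gene strand, was present in the window of Chad and in 0 of the other 8 windows, and in 8.32% of all promoters. A match describes the letters of the window and does not show a bound site.

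The mean of the 9 genes was highest on 5 of the 6 low protein arrays and lowest on the remaining one. Each gene was centred on its mean over the 12 arrays and the 9 centred values were averaged. This mean was 1.58, 1.70 and -1.25 in LP replicates 1, 2 and 3 and 0.89, 0.86 and 0.58 in LPtau replicates 1, 2 and 3. It was -1.25, -0.55 and -0.51 in NP and -0.84, -0.13 and -1.09 in NPtau, in the same order. LP replicates 1 and 2 thus ranked highest of the 12, the LPtau arrays followed, all 6 normal protein arrays came after them, and LP replicate 3 ranked last beside NP replicate 1. For 6 of the 9 genes (Matn1, Matn3, Hapln1, Comp, Chad and Epyc) 5 of the 6 low protein arrays lay above all 6 normal protein arrays, which held with 5 or 6 arrays for 1.74% of all genes. This way of counting was chosen after the values were seen. In these whole-tissue samples, more cartilage cells in a sample and more RNA of these genes per cell cannot be told apart.

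**Figure D1:**
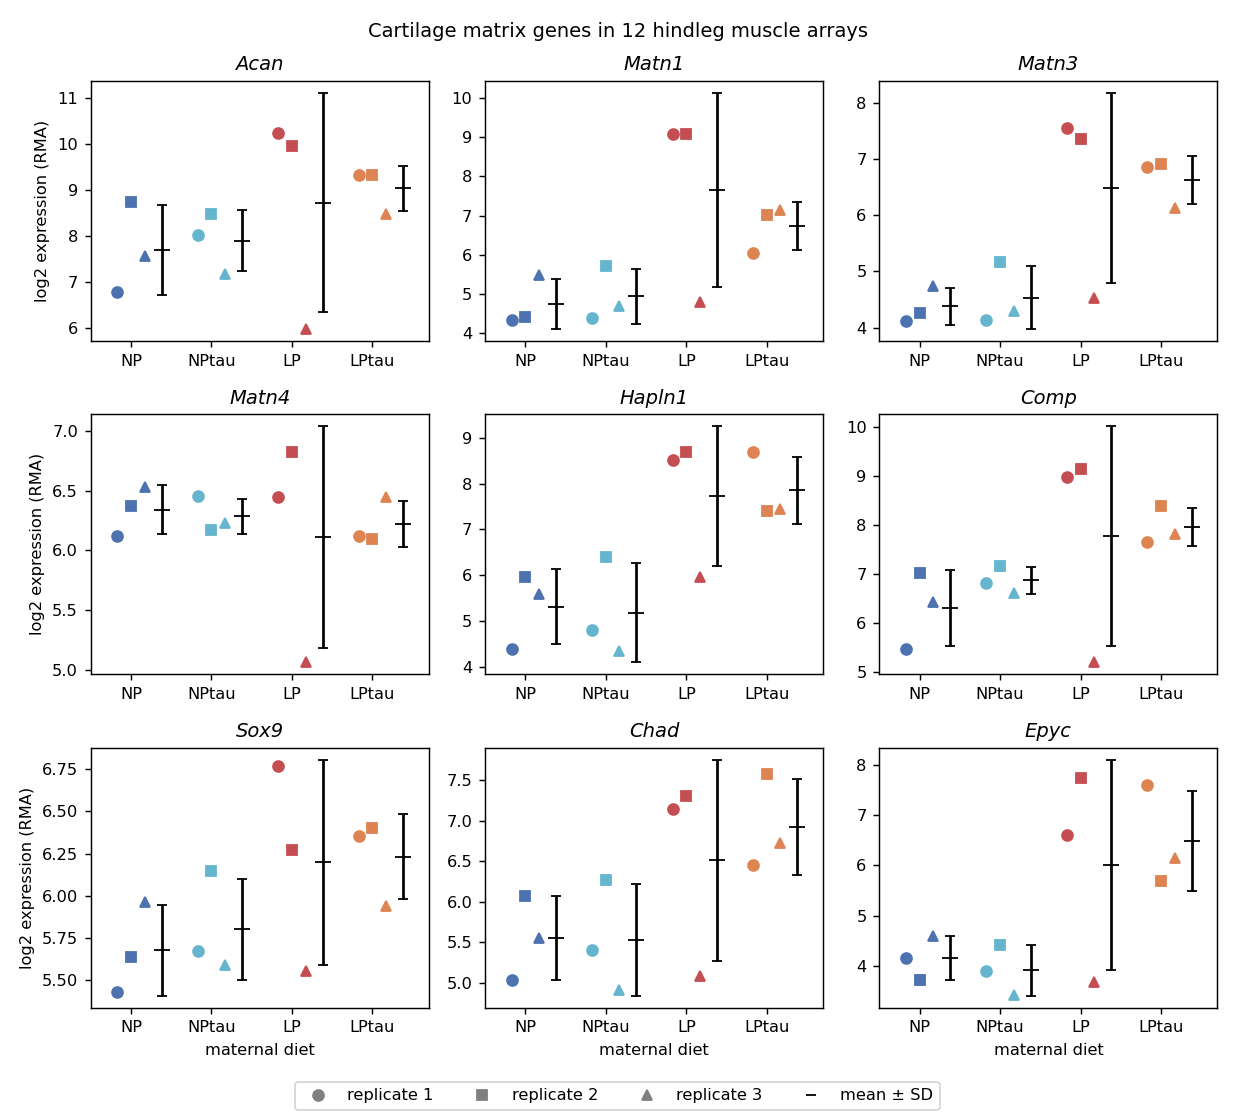
Log2 expression (RMA) of the 9 cartilage genes by maternal diet, with 1 point for each of the 12 hindleg muscle arrays, shaped by replicate number, and the mean ± SD of each diet (n = 3). LP replicates 1 and 2 are among the 4 highest arrays in all 9 panels, LP replicate 3 lies within or below the range of the normal protein arrays, and Matn4 spans no more than 5.06 to 6.83.

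Aggrecan is the large proteoglycan whose sulfated chains draw water into cartilage. Acan was 6.80, 8.74 and 7.58 in NP replicates 1, 2 and 3 and 8.03, 8.49 and 7.19 in NPtau. It was 10.24, 9.97 and 5.98 in LP and 9.33, 9.33 and 8.48 in LPtau. The LP group held both the highest array and the lowest, 19.1-fold apart, and 79.7% of the variation of Acan (sum of squares over the 12 arrays) lay between arrays of the same diet. The LPtau values overlapped with those of NP and, by 1 array, with those of NPtau.

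Hapln1 is the link protein that fixes aggrecan to hyaluronan. On the probe set with the highest mean it was 4.39, 5.96 and 5.59 in NP and 4.80, 6.41 and 4.35 in NPtau. It was 8.52, 8.69 and 5.96 in LP and 8.69, 7.41 and 7.45 in LPtau. All LPtau arrays lay above all NP and NPtau arrays, while LP replicate 3 lay within their range. The 4 probe sets of Hapln1 correlated with each other at 0.913 to 0.987 over the 12 arrays, and the within-diet share of their variation was 25.9% to 45.3%. Their LP minus NP differences ran from 1.59 to 2.41 and their LPtau minus NPtau differences from 1.50 to 2.67.

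The matrilins are adaptor proteins of the matrix, and Matn1 is found almost only in cartilage. Matn1 was 4.34, 4.40 and 5.49 in NP and 4.38, 5.72 and 4.69 in NPtau. It was 9.09, 9.10 and 4.80 in LP and 6.04, 7.02 and 7.14 in LPtau. Its range was the widest of the 9 genes on the probe sets used, 27.1-fold between LP replicate 2 and NP replicate 1. LP replicates 1 and 2 lay above the highest LPtau array, and the LPtau arrays lay above all normal protein arrays.

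Matn3, a matrilin of growth plate cartilage, was 4.12, 4.27 and 4.75 in NP and 4.13, 5.17 and 4.30 in NPtau. It was 7.56, 7.37 and 4.53 in LP and 6.86, 6.91 and 6.13 in LPtau. With LP replicate 3 apart, each low protein array was higher than each normal protein array. The second Matn3 probe set correlated with it at 0.946 and was highest in LPtau replicate 1, at 7.23.

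Matn4 is a matrilin found in many tissues besides cartilage. It was 6.12, 6.37 and 6.53 in NP, 6.45, 6.17 and 6.23 in NPtau, and 6.12, 6.10 and 6.44 in LPtau. In LP it was 6.45, 6.83 and 5.06. LP replicate 3 was the lowest of the 12 arrays and LP replicate 2 the highest, while the NP, NPtau and LPtau values overlapped. Of its variation 95.7% lay within diets.

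Comp, a member of the thrombospondin family that binds collagen in cartilage and tendon, was 5.47, 7.02 and 6.44 in NP and 6.82, 7.18 and 6.62 in NPtau. It was 8.998, 9.16 and 5.20 in LP and 7.67, 8.40 and 7.83 in LPtau. LP again held the highest and the lowest array, 15.6-fold apart, and all LPtau values were above all NPtau values.

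Chad, a leucine-rich protein through which chondrocytes attach to the matrix, was 5.04, 6.07 and 5.55 in NP and 5.41, 6.27 and 4.91 in NPtau. It was 7.15, 7.31 and 5.08 in LP and 6.45, 7.58 and 6.73 in LPtau. LPtau replicate 2 was the highest array, which it was for no other of the 9 genes, and the 3 LPtau values lay above all normal protein values. Epyc, a small leucine-rich proteoglycan of growth cartilage, was 4.16, 3.73 and 4.59 in NP and 3.90, 4.42 and 3.42 in NPtau. It was 6.61, 7.74 and 3.69 in LP and 7.59, 5.70 and 6.15 in LPtau, 20.0-fold between its extremes. LP replicate 3 lay below all NP arrays, and LP replicates 1 and 2 and all LPtau arrays lay above all normal protein arrays.

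Sox9 had the smallest range of the 9 genes on the probe set with the highest mean, 1.34 or 2.53-fold. It was 5.43, 5.64 and 5.96 in NP, 5.67, 6.15 and 5.59 in NPtau, 6.77, 6.27 and 5.56 in LP and 6.35, 6.40 and 5.94 in LPtau. The order of the arrays was like that of the matrix genes, with LP replicate 1 highest, but the groups overlapped. Its other probe sets spanned 2.02 and 0.75, and the 3 probe sets correlated at 0.481 to 0.819.

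Of the 9 genes 7 had a range above 2 log2 units over the 12 arrays (5.46% of all genes), and the median range over all genes was 0.81. The within-diet share of the variation had a median of 54.3% over the 9 genes and of 71.2% over all genes. Without LP replicate 3 the median over the 9 was 16.8%. The 9-gene mean had a mean of -0.77 ± 0.42 (SD, n = 3) in NP, -0.68 ± 0.50 in NPtau, 0.68 ± 1.67 in LP and 0.77 ± 0.17 in LPtau. The LP arrays thus spread more than those of the other diets, on both sides of 0, and the LPtau arrays spread least.

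The effect of low protein without taurine was measured as LP minus NP, with limma on the 12 muscle arrays and 3 arrays per diet. The difference was positive for 8 of the 9 genes (47.6% of all genes) and above 1 for 6 (0.984% of all genes). It was 2.92 (SE 0.95) for Matn1, 2.41 (SE 0.76) for Hapln1, 2.11 (SE 0.66) for Matn3, 1.85 (SE 0.84) for Epyc and 1.47 (SE 0.85) for Comp. Acan had 1.03 (SE 0.95), Chad 0.96 (SE 0.57), Sox9 0.52 (SE 0.28) and Matn4 -0.23 (SE 0.35). The median was 1.47, against -0.01 over all genes. At an adjusted p under 0.05 limma called 0 of the 9 genes and 23 of all genes (0.126%). At an unadjusted p under 0.05 it gave 3 of 9 and 1957 of all genes (10.8%). In 0 of the 9 genes did all LP values lie above all NP values (7.99% of all genes). Nothing is read from these counts, since the choice of the genes used these arrays. The median was 2.77 without LP replicate 3, 0.79 without LP replicate 2, 0.87 without LP replicate 1 and 0.60 with arrays weighted by their fit, and Matn4 had 0.30 (SE 0.18) without LP replicate 3.

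The effect of low protein in the presence of taurine was measured as LPtau minus NPtau, which shares no array with LP minus NP. Both came from the same limma fit, so a gene has the same SE in both. That SE takes in the spread of all 12 arrays within their diets, LP replicate 3 among them. Of the 9 genes 8 had a positive difference (52.5% of all genes) and 7 a difference above 1 (0.187% of all genes). The values were 2.67 (SE 0.76) for Hapln1, 2.57 (SE 0.84) for Epyc, 2.10 (SE 0.66) for Matn3 and 1.80 (SE 0.95) for Matn1. Chad had 1.40 (SE 0.57), Acan 1.14 (SE 0.95), Comp 1.09 (SE 0.85), Sox9 0.43 (SE 0.28) and Matn4 -0.06 (SE 0.35), which was 0.01 after a further quantile normalization. In 6 of the 9 genes all 3 LPtau arrays lay above all 3 NPtau arrays, as they did in 6.6% of all genes, and in 0 of the 9 did they lie below (3.78%). The median was 1.40, against 0.01 over all genes, and ran from 1.07 to 1.77 when each array was left out in turn. With limma 0 of the 9 and 0 of all genes passed an adjusted p of 0.05 (0%). An unadjusted p under 0.05 was given to 4 of 9 and to 992 of all genes (5.45%). The choice of the 9 genes used these arrays, so nothing is read from their counts here either.

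**Figure D2:**
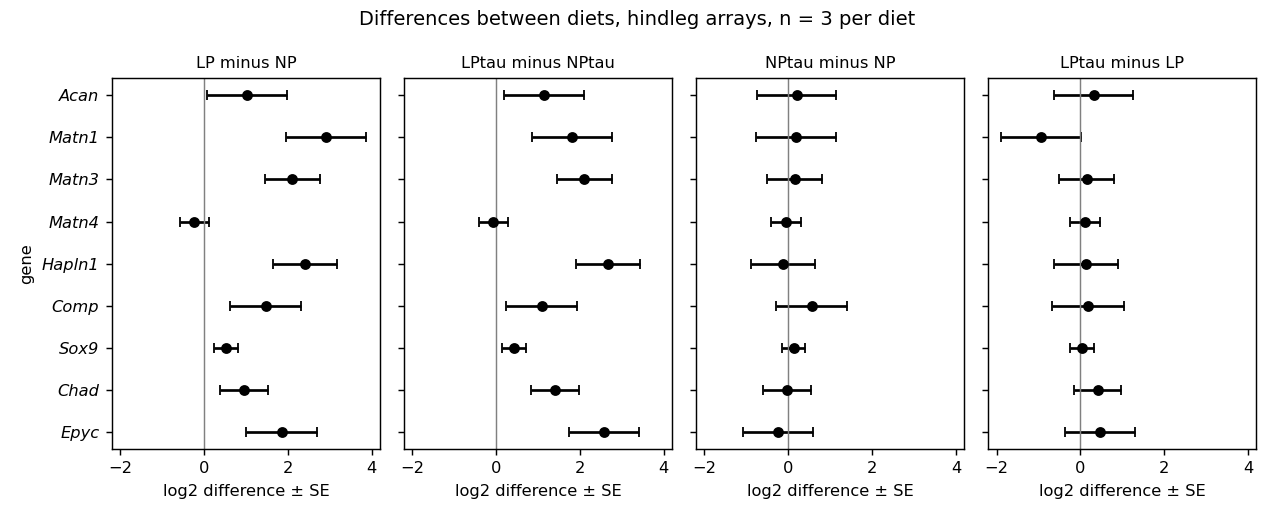
Log2 differences between diets with the standard error of limma for the 9 cartilage genes, n = 3 arrays per diet. Of the genes 8 lie right of 0 in both low protein comparisons, with Matn1 at 2.92 and Hapln1 at 2.67 the farthest, and the taurine comparisons lie around 0.

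Taurine under normal protein (NPtau minus NP) gave small differences. They ran from -0.25 (SE 0.84) for Epyc to 0.56 (SE 0.85) for Comp, with 5 of 9 positive (43.1% of all genes), 0 of 9 above 1 (0.044% of all genes) and a median of 0.13. In 0 of the 9 did all NPtau values lie above all NP values (2.26% of all genes) or below them (3.14%). Taurine under low protein (LPtau minus LP) gave 8 of 9 positive (53% of all genes), a median of 0.15 and a range from -0.93 (SE 0.95) for Matn1 to 0.47 (SE 0.84) for Epyc. In 0 of the 9 did all LPtau values lie above all LP values (9.03% of all genes) or below them (7.09%). The median moved with single arrays: it was -0.75 without LP replicate 3, where Matn1 had -2.36 (SE 0.47), 0.68 without LP replicate 1 and 0.61 without LP replicate 2. It was 0.04 without LPtau replicate 1, 0.08 without LPtau replicate 2, 0.33 without LPtau replicate 3 and 0.50 with array weights. The difference between the effects of low protein with and without taurine (the interaction) was positive for 5 of 9 genes (53.5% of all genes), and above 1 for 0 (1.12% of all genes), with a median of 0.12. That median was -0.62 without LP replicate 3, 0.53 without LP replicate 1, 0.52 without LP replicate 2 and 0.74 with array weights, and it was also negative without NP replicate 2 (-0.06), NPtau replicate 3 (-0.16), LPtau replicate 1 (-0.12) or LPtau replicate 2 (-0.03). With limma 0 of the 9 genes were called in these 3 comparisons, in which 0 of all genes (0%), 4 of all genes (0.022%) and 0 of all genes (0%) were called. At an unadjusted p under 0.05 the counts were 0 of 9 in each, and 88 (0.484%), 2345 (12.9%) and 1194 (6.56%) of all genes. Nothing is read from the counts of the 9 genes, for the reason given above. The 4 genes called in LPtau minus LP were 3 higher (0.0165% of all genes) and 1 lower, which became 51 and 5 after a further quantile normalization and 59 and 8 after cyclic loess normalization.

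The genes other than Matn4 varied together over the arrays, also after the diet means were subtracted. Over the 12 arrays the 28 pairs without Matn4 had a Pearson correlation of 0.776 to 0.958, with a median of 0.854. After the mean of each diet was subtracted, these pairs had 0.586 to 0.961, with a median of 0.821. The closest pair was Acan and Comp in both. The 8 pairs with Matn4 had 0.226 to 0.632, and 0.577 to 0.892 within diets, with a within-diet median of 0.794. Without LP replicate 3 the pairs with Matn4 had 0.132 to 0.483 and the 28 other pairs 0.767 to 0.949. The arrays share their normalization, and 12 arrays with 3 per diet are few, so these values describe the arrays only.

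**Figure D3:**
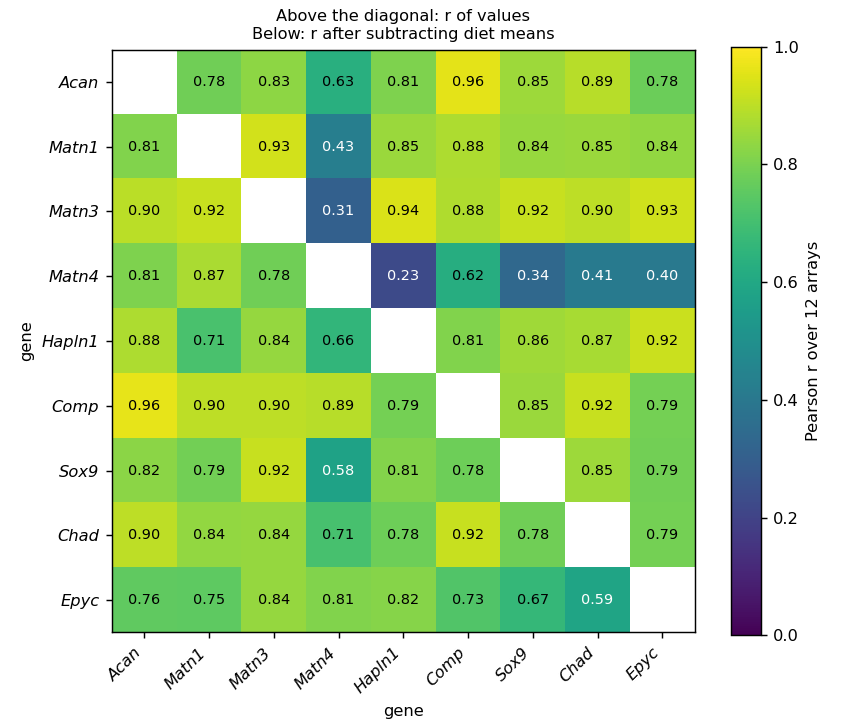
Pearson correlation between the 9 cartilage genes over the 12 hindleg arrays, from the values above the diagonal and after subtracting each diet's mean below it. The row and column of Matn4 hold the lowest correlations above the diagonal, 0.23 to 0.63, and the other pairs hold 0.78 to 0.96.

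Further cartilage genes that are no members were taken from a list of 21, of which 20 were measured. Their mean followed that of the 9 genes, with a correlation of 0.988 over the 12 arrays. Within diets it was 0.987, a value that leans on the LP arrays. Col2a1, the main collagen of cartilage, was 7.29, 9.61 and 10.25 in NP and 8.58, 10.97 and 8.09 in NPtau. It was 13.12, 12.59 and 7.36 in LP and 11.59, 12.61 and 11.58 in LPtau. The low protein arrays other than LP replicate 3 thus all lay above the normal protein arrays for Col2a1. For 13 of the 20 genes 5 or 6 of the low protein arrays lay above all 6 normal protein arrays (1.74% of all genes). The list was chosen with earlier results of these data known, and this count after the values were seen. The list is thus no separate check on the 9 genes.

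The list was not called gene by gene. In LP minus NP 19 of the 20 genes were positive (47.6% of all genes), with a median of 0.69, and in LPtau minus NPtau 19 were positive (52.5%), with a median of 1.05. With limma 0 of 20 passed an adjusted p of 0.05 in each of the 5 comparisons, and 4 and 6 of 20 had an unadjusted p under 0.05 in these 2, as did 10.8% and 5.45% of all genes. Col2a1 had 1.97 (SE 1.37) and 2.71 (SE 1.37), and Col11a1, a fibril collagen of cartilage, had 0.56 (SE 0.78) and 0.88 (SE 0.78). Col27a1, a further fibril collagen, had 0.69 (SE 0.13, adjusted p = 0.0767 with limma) in LP minus NP and 0.49 (SE 0.13) in LPtau minus NPtau. It did not follow the others: its highest array was LP replicate 3, at 9.47, and its correlation with the 9-gene mean within diets was -0.65. Sox6, a partner of Sox9 that muscle also expresses, had -0.54 (SE 0.27) and -0.10 (SE 0.27).

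Without LP replicate 3, 2 of the 20 genes and 12 of all 18193 (0.066%) were called in LP minus NP. Without LPtau replicate 1 the list had 1 called gene, Col27a1, and with any other single array left out it had 0. Col9a2, a chain of type IX collagen, rose by 2.78 (SE 0.33, adjusted p = 0.0264 with limma), and Fgfr3, the receptor that restrains growth plate chondrocytes, rose by 2.01 (SE 0.24, adjusted p = 0.0264 with limma). With all arrays they had 1.75 (SE 0.68) and 1.46 (SE 0.39), which did not pass. Fgfr3 was the single gene of the list for which all 6 low protein arrays lay above all 6 normal protein arrays. Both genes were chosen after their values were seen.

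Genes most like the 9-gene mean were sought among 8916 named genes with a mean level above the median of all genes, by the Pearson correlation over the 12 arrays. The 12 highest were Col9a3 (0.983), Col2a1 (0.956), Col9a1 (0.949), Cnmd (0.949), Cep83 (0.915), Chst11 (0.897), Wwp2 (0.895), Susd5 (0.884), Col11a1 (0.877), Lrrc42 (0.841), Col11a2 (0.839) and Dennd3 (0.834). Of these, 8 stood in the list of further cartilage genes. Col9a3 and Col2a1 also ranked highest after the diet means were subtracted (0.975 and 0.956). Col9a1, a chain of the type IX collagen on the fibril surface, spanned 4.03 in NPtau replicate 3 to 11.20 in LP replicate 1. Cnmd, which encodes the cartilage protein chondromodulin, spanned 3.80 in NP replicate 1 to 9.53 in LP replicate 2. Cep83, a centriole gene, spanned only 7.22 to 7.48, so a high correlation did not always go with a wide range.

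Markers of other tissues of the leg were read on the same arrays, as list means relative to the mean of the NP arrays. The tendon list (8 of 8 genes measured) was -0.30 to 0.53 in NP, -0.27 to 0.48 in NPtau, -2.06 to 0.42 in LP and -0.07 to 0.48 in LPtau. LP replicate 3, the array with the lowest cartilage mean, was the lowest for tendon. Tnmd, a membrane protein of tendon cells, was 7.78 there and 10.96 or more on the other arrays. Fmod, a tendon proteoglycan, was 6.98 there and 9.90 or more elsewhere. Not all genes of the list fell as far. Col12a1 was 10.06 there and lower in NPtau replicate 2, at 9.87. Col14a1 was 10.95 there and 11.15 in LPtau replicate 1. Over the 12 arrays Matn4 correlated at 0.877 with Tnmd, 0.859 with Kera and 0.855 with Fmod, which were among its 12 most similar genes by the same rule. These values rested on LP replicate 3, since over the other 11 arrays they were 0.381, 0.212 and 0.289. Each of these 12 genes was lowest in LP replicate 3, and this search was added after the values of Matn4 were seen. The part of tendon in these values was not tested.

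The genes of hypertrophic cartilage, the zone where chondrocytes enlarge before bone forms, did not follow the 9 genes on every array. Col10a1, the collagen of that zone, was 6.89 in LP replicate 2, 6.98 in LPtau replicate 1 and 7.83 in LPtau replicate 3. On the other 9 arrays it was 3.77 to 4.25, and these included LP replicate 1 and LPtau replicate 2, which were high for the 9 genes. Other genes of the list had other high arrays. Pth1r was 9.28 in LP replicate 1, its highest array, 8.13 in LP replicate 3 and 6.72 in LPtau replicate 1. Mmp13 was 9.13 in LPtau replicate 3, 9.05 in NP replicate 2 and 4.01 in LP replicate 1. The hypertrophic list (6 of 6 genes) was -0.42 to 0.60 in NP, -0.39 to 0.29 in NPtau, -0.13 to 1.03 in LP and -0.45 to 1.39 in LPtau. Its mean correlated with that of the 9 genes at 0.402.

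The bone list (9 of 14 genes measured) was -0.49 to 0.83 in NP, -0.04 to 0.30 in NPtau, 0.01 to 1.64 in LP and -0.53 to 0.84 in LPtau. Ibsp, a mineral-binding protein of bone, was 11.16 in LP replicate 2, 9.65 and 9.67 in LPtau replicates 1 and 3 and 9.19 in NP replicate 2, and 4.06 in LPtau replicate 2. Ibsp and the list mean (0.83) were thus also high in NP replicate 2, where the 9-gene mean was -0.55. Dmp1 was 8.24 there, against 4.65 in NP replicate 1. Not all bone genes followed: Col1a1 and Col1a2 were 14.1 and 14.2 there, against 13.9 and 14.1 in NP replicate 1. The osteoclast list (8 genes) ranged from -0.42 in NP replicate 3 to 0.75 in LP replicate 2, and the joint list (4 genes) from -0.72 in LP replicate 3 to 0.40 in LPtau replicate 2.

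**Figure D4:**
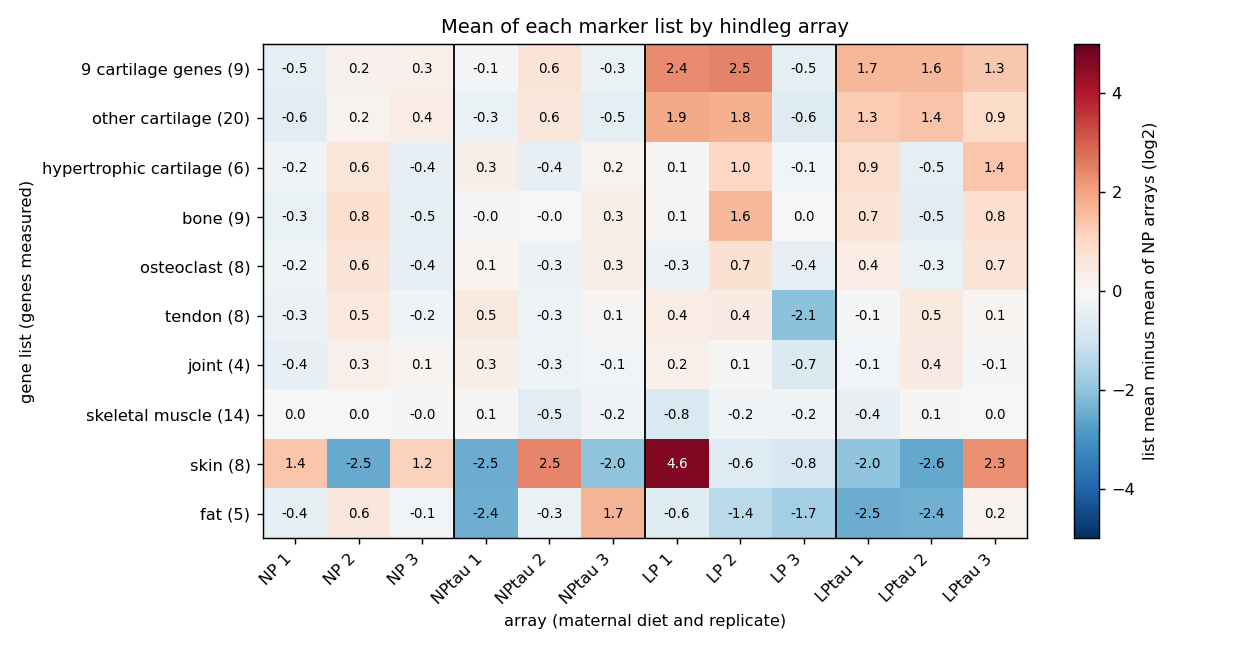
Mean of each marker list on each hindleg array minus the mean of the 3 NP arrays, in log2 units, with the number of genes measured beside each list. The 9 cartilage genes and the other cartilage list share their high and low arrays, skin is highest in LP replicate 1 at 4.6, and tendon is lowest in LP replicate 3 at -2.1.

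In LP minus NP the skin list was positive for 8 of 8 genes, with a median of 1.11, which is above that of the other cartilage list. The fat list was positive for 0 of 5 (median -1.51), the skeletal muscle list for 0 of 14 (median -0.28) and the bone list for 8 of 9 (median 0.44), against 47.6% of all genes. All LP values lay below all NP values for 4 of the 5 fat genes and 8 of the 14 muscle genes (11.6% of all genes). In LPtau minus NPtau skin was positive for 4 of 8 (median -0.13), fat for 1 of 5 (-1.43), skeletal muscle for 11 of 14 (0.10) and bone for 7 of 9 (0.17), against 52.5% of all genes. With limma 0 genes of these 4 lists were called in the 5 comparisons. At an unadjusted p under 0.05 muscle had 4 of 14 and the others 0 in LP minus NP, against 10.8% of all genes. Skin and fat also differed between arrays of the same diet. The skin list (8 genes) was -2.54 to 1.37 in NP, -2.47 to 2.46 in NPtau, -0.84 to 4.62 in LP and -2.56 to 2.30 in LPtau, and Krt5, a keratin of the epidermis, reached 12.64 in LP replicate 1. The fat list (5 of 7 genes measured) was -0.44 to 0.57 in NP, -2.43 to 1.71 in NPtau, -1.68 to -0.59 in LP and -2.47 to 0.19 in LPtau. The correlations of these lists with the 9-gene mean were 0.266 for skin and -0.305 for fat, and -0.419 for skeletal muscle. The nerve sheath list (4 of 7 genes) and the erythroid list (4 of 7 genes) had 0.209 and -0.464. The part of these tissues in the cartilage values was not tested.

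**Figure D5:**
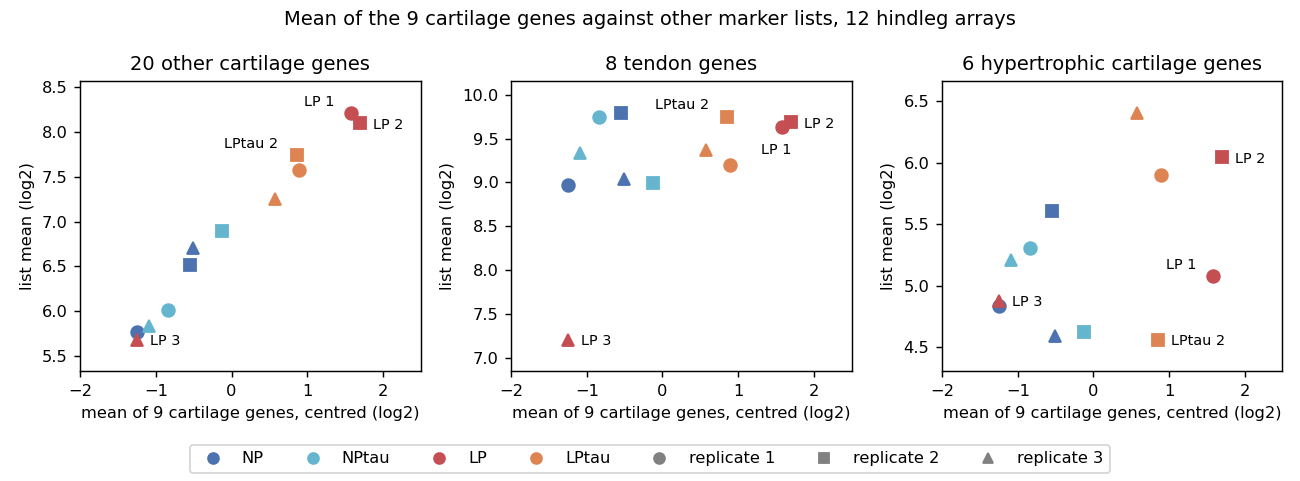
Mean of the 9 centred cartilage genes on the horizontal axis against the mean log2 level of 20 other cartilage genes, 8 tendon genes and 6 hypertrophic cartilage genes, with 1 point per hindleg array. The other cartilage genes rise with the 9 genes over all arrays (correlation 0.988), tendon sets LP replicate 3 apart, and hypertrophic cartilage splits the arrays with high cartilage values.

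Relatives of the 9 genes from the same or similar gene families had small median differences between diets. The list held 16 genes, such as the proteoglycan versican (Vcan) and the thrombospondin Thbs2. Its LP minus NP median was -0.12, with 5 of 16 positive (47.6% of all genes), and its LPtau minus NPtau median was 0.06, with 9 of 16 positive (52.5%). These medians hide moves both ways: in LP minus NP Thbs4 had -0.70 (SE 0.42) and Thbs2 0.53 (SE 0.30). Of the 16 genes 7 lay above the array median on no NP array, so low signal is part of the small medians. Vcan was 10.28 to 11.31 over the 12 arrays and Thbs2 was 9.72 to 11.22. A list of small leucine-rich proteoglycans and relatives (12 genes), with Fmod and Kera of the tendon list among them, had medians of -0.06 and -0.01. Dcn, the proteoglycan decorin, was 12.04 to 13.13. The means of both lists were lowest in LP replicate 3, as was the mean of the 9 genes. The correlation with the 9-gene mean was 0.392 for the relatives and 0.524 for the leucine-rich list. Within diets it was 0.747 and 0.825, values that lean on the LP arrays. Chadl, a relative of Chad that stands in both lists and was chosen after its values were seen, correlated at 0.811, and at 0.803 within diets. With limma 0 genes of both lists were called in the 5 comparisons. In LP minus NP 1 of 16 and 0 of 12 had an unadjusted p under 0.05 (10.8% of all genes).

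The same 15 probe sets were read in the 12 liver arrays of these diets, which were normalized apart from the muscle arrays, so the levels of the tissues were not compared. Within liver the spread was small for most of these probe sets. Matn1 was 3.34 to 3.93, the 4 Hapln1 probe sets were 3.41 to 3.90 and Epyc was 4.13 to 4.69 over the 12 liver arrays. Acan was 5.29 to 5.76, and Comp had the widest liver range of the 9 genes on the probe sets used, 5.86 to 7.18. Chad was 4.78 to 5.67, Matn4 5.47 to 5.98 and Sox9 5.32 to 6.14. The Sox9 probe set that spanned 0.75 in muscle was 4.57 to 5.35 in liver.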

How the data were processed

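Values were used as deposited, without further normalization. They are log2 expression values, which the authors obtained by RMA (R 2.7.0 is listed in the submitters' processing notes, as is MAS5, whose role is not stated). The labels say that liver and muscle were normalized as separate sets. The 24 value columns carry the names of the samples, with 0 unmatched. Scanner files were not used here.

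Genes were assigned through the platform's annotation: 34945 probe sets with a single symbol, 932 with several, 9160 without and 64 controls. Of the first, 34741 had an identifier in RefSeq (GRCm38.p6), and 0 symbols were altered. A gene with several probe sets was represented by that of highest mean in muscle (18193 genes), with no filter on low values. Diet means were fitted on the 12 muscle arrays in limma 3.58.1 (R 4.3.3). A gene was called in 1 of 5 contrasts where the p adjusted by Benjamini-Hochberg over all genes was under 0.05. In simulated data for LP minus NP on 18193 genes, 74% of 100 changes of 1 and 94% of 100 changes of 2 were recovered, with 3 false calls. The noise was drawn independently for each gene and array with that gene's spread, and the changed genes were picked at random. These shares thus do not hold for the 9 members, most of which spread more widely than other genes.

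The 9 members and all gene lists were chosen with earlier results of these data known. Named are the members, from each list at most 4 genes of highest mean and any called gene, and the 12 genes most like the members' mean. Other genes, Xist and Kera among them, were chosen after their values were seen. No 2 arrays were duplicates, with correlations of 0.944 to 0.995. The labels give no batch.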

Additional observations from a re-analysis of the deposited data

How the results depend on the processing

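The direction of the 9-gene median held under all 22 alternatives for LP minus NP and for LPtau minus NPtau, at 0.60 to 1.59 and 1.14 to 1.83 without the settings that leave out 1 array. With 1 array left out, LP minus NP ran from 0.79 to 2.77 and the within-diet share of the variation from 16.8% to 62.4%. The medians of NPtau minus NP, LPtau minus LP and the interaction kept their sign in 17 of 22, 21 of 22 and 16 of 21 alternatives.

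The 23 genes called in LP minus NP became 38 with the mean of a gene's probe sets, 8 with every probe set alone, 62 with quantile and 65 with cyclic loess normalization, 36 above the median level only, 14 with the groups compared only and 789 with array weights. The 4 of LPtau minus LP became 13, 56, 67, 8, 0 and 281 under the same settings except every probe set alone, and the 0 of the interaction 1, 1, 2 and 4 with quantile, cyclic loess, the level filter and array weights. Of the other cartilage genes 1 (Col27a1) was called in LP minus NP and in LPtau minus LP with the mean of probe sets and with array weights. Without LP 1 and LPtau 1, chosen after seeing the data, LP minus NP had 293 genes and 1 other cartilage gene, and LPtau minus LP 36. With 1 array left out the counts ran from 2 to 126, 0 to 75 and 0 to 5 for LP minus NP, LPtau minus LP and the interaction, and from 0 to 2 for other cartilage genes in LP minus NP. The cause of these moves was not tested.

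With the replicate number as a block, LP minus NP had 2 called genes and LPtau minus LP 0. The labels do not say that a number pairs samples, and the deviations of 6 of 18 same-numbered pairs correlated above 0.1. Of 12 arrays 1 correlated best with its own number.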
